A study of Rattus norvegicus with 6 samples.

Results

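Oligodendrocyte precursors and the committed cells that follow them were taken from single-cell counts of the rat hippocampus by their own marker genes. A member was a cell barcode with at least 1000 unique molecular identifiers (UMIs, counted transcripts) and at most 20% mitochondrial UMIs. It carried at least 3 UMIs summed over Pdgfra, Cspg4, Gpr17, Bmp4 and Neu4. Its UMIs of Gja1, Aqp4 and Slc1a3 (astrocyte genes) and of C1qa, C1qb and C1qc (microglial genes) were each at most 3 per 1000, and those of Mag, Mog, Ermn, Cldn11 and Mal (oligodendrocyte genes) were under 2 per 1000. The rule found 186 of 46952 barcodes that passed the depth and mitochondrial limits, a share of 0.396% (exact binomial 95% interval 0.341 to 0.457), out of 58078 barcodes in all. Intervals given for shares and levels cover counting error only. Because the rule reads these genes, their values describe the members and support nothing further.

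The study set 3 control samples beside 3 irradiated samples of the hippocampus of male rats, the latter taken 2 months after 20 Gy to the whole brain. No transgene, sorting or strain is named in the labels, and nothing ties the 6 numbered libraries of the joint matrix to the 6 labelled samples. No comparison of irradiated with control rats was therefore made, 0 libraries carry a group, and values per library are given without one. Cells of a library share their source and are not replicates, so no p-value is given.

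Oligodendrocyte precursors are the main dividing glia of the adult brain. They receive platelet-derived growth factor through its alpha receptor, Pdgfra, and carry the proteoglycan NG2, the product of Cspg4. On commitment they lose Pdgfra, pass through a stage marked by the receptor Gpr17, the secreted factor Bmp4 and Bcas1, and then build myelin under transcription factors such as Sox10 and Myrf. NG2 is also known from pericytes on small vessels, and Pdgfra from fibroblasts of the meninges and vessel walls.

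The members fell into 4 classes by their own counts. Pdgfra without Gpr17 or Bmp4 was found in 74 cells (39.8%), and 64 cells (34.4%) held Pdgfra together with Gpr17 or Bmp4. Gpr17 or Bmp4 without Pdgfra marked 26 cells (13.98%). The other 22 cells (11.8%) held Cspg4 alone, with 0 UMIs of Neu4. Pdgfra-positive cells thus numbered 138 and Gpr17/Bmp4-positive cells 90, with 64 in both counts. Median depth differed between the classes, at 4276.5 UMIs in Pdgfra-only cells, 5130.5 in double-positive cells, 8611.5 in Gpr17/Bmp4-only cells and 9866 in Cspg4-only cells. Their median mitochondrial shares were 12.3%, 9.69%, 8.89% and 7.90%. The part of depth and mitochondrial share in the differences between classes was not tested.

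The label held for most members and failed for one class. Olig1, Olig2 and Sox10 are transcription factors of the oligodendrocyte lineage that the rule did not read. At least 1 UMI of them was present in 154 of 186 members (82.8%, 76.6 to 87.9). It was present in 7.30% of 33869 microglia and macrophages with C1q, 21.0% of 10208 astrocytes and 12.9% of 132 neuroblasts. A single such UMI is thus not particular to the lineage. The 32 members without these factors were all 22 Cspg4-only cells, 7 double-positive cells and 3 Gpr17/Bmp4-only cells. Over 14 vascular and fibroblast genes, 35 members had 3 or more UMIs, and 31 of these 35 were among the 32 without a lineage factor. In the plot of lineage factors against vascular genes the members separate into these sets, with few cells between.

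**Figure D1:**
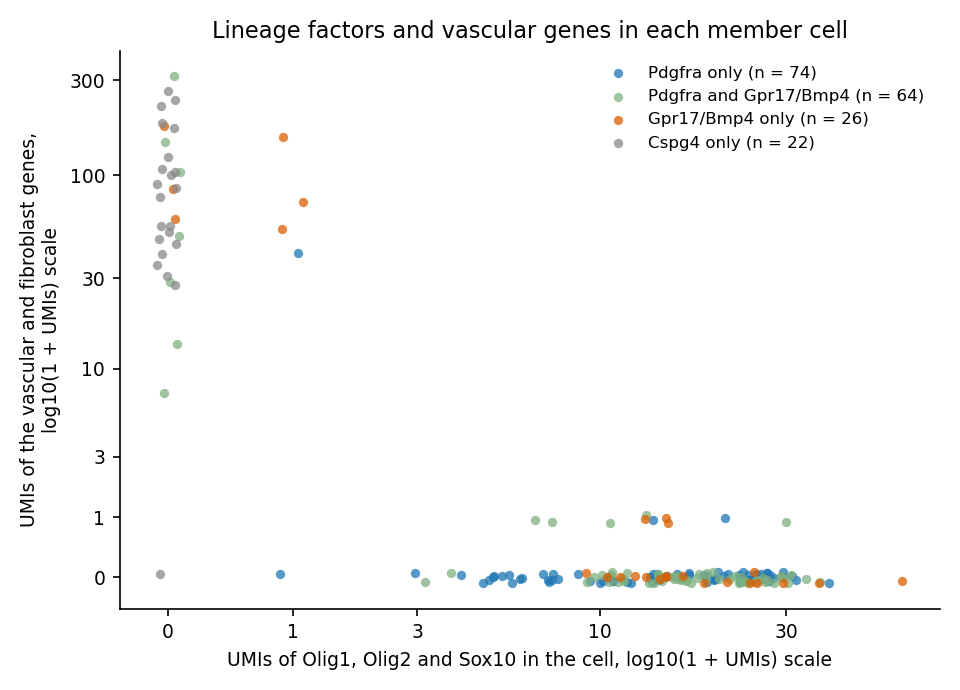
Each point is 1 of the 186 members, placed by its UMIs of Olig1, Olig2 and Sox10 (x axis) and its UMIs summed over 14 vascular and fibroblast genes (y axis), both on a log10(1 + UMIs) scale with slight jitter. The 22 Cspg4-only cells lie at 0 lineage-factor UMIs, while 150 members lie at 1 or more with under 3 vascular UMIs.

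The Cspg4-only cells were led by genes of vessels. Rgs5, a regulator of G-protein signalling abundant in pericytes, stood at 1567.5 CPM (UMIs of the gene scaled to the summed UMIs of the class; Poisson 95% interval 1425 to 1720) and was found in 95.5% of the 22 cells. Vtn (vitronectin) stood at 1223 CPM, Kcnj8 (a pericyte potassium channel) at 474 CPM, and the endothelial genes Itm2a and Esam at 2098 and 664 CPM. A set of 150 members had a lineage factor and under 3 UMIs over the 14 vascular and fibroblast genes. Of the members outside those 150, 36 in all, 27 carried 3 or more UMIs of Rgs5, Kcnj8 and Abcc9, and 25 of these 27 also carried 3 or more of Itm2a, Esam and Egfl7. Of the 36, 9 carried 3 or more UMIs of Col1a1, Col1a2, Dcn and Lum, genes of fibroblasts, and 8 of those 9 were Pdgfra-positive. The 1 member outside the 150 with none of these groups had 270 UMIs of Cd74, a gene of antigen-presenting cells.

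Bmp4 was also found in members that lacked the lineage factors. Members without a lineage factor held 48 UMIs of Bmp4 in 10 of 32 cells and 0 UMIs of Gpr17. The 150 lineage cells held 35 UMIs of Bmp4 in 19 cells and 216 UMIs of Gpr17 in 77 cells. These 150 cells, with at least 1 lineage-factor UMI and under 3 vascular UMIs, were set apart after the values were seen and are called the lineage cells from here on. They comprise 73 Pdgfra-only, 57 double-positive and 20 Gpr17/Bmp4-only cells, or 0.319% of passing barcodes. Results are given for them beside those of the rule.

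RNA of other types in the lineage cells was low but not absent. The 17 microglia and macrophage markers outside the rule summed to 1481, 1699 and 1116 CPM in Pdgfra-only, double-positive and Gpr17/Bmp4-only lineage cells, against 38194 CPM in microglia and macrophages. The 14 astrocyte markers outside the rule summed to 2742, 3154 and 1274 CPM, against 27507 CPM in astrocytes. Vascular and fibroblast genes were low in these cells by the choice of the 150 and say nothing further. How far such RNA enters the levels below was not tested.

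At the edge of the rule the marker count itself separated less well. Barcodes with 2 summed UMIs of the 5 marker genes, just outside, numbered 23, of which 1 had a lineage factor. Members with 3 UMIs numbered 17, of which 6 had one, and those with 4 UMIs numbered 13, of which 5 had one. With 5 or more UMIs, 143 of 156 members (91.7%) had one. The other limits removed 207 of 393 barcodes with 3 or more marker UMIs. The C1q limit alone removed 138, of which 36 had a lineage factor, the astrocyte limit alone removed 29, of which 22 had one, and the oligodendrocyte limit alone removed 19, all with one. Committed cells with more myelin RNA are therefore outside the members by construction.

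Members were spread unevenly over the libraries. Libraries 1 to 6 held 64, 19, 4, 56, 33 and 10 members, and 61, 9, 0, 51, 19 and 10 lineage cells. As shares of passing barcodes the lineage cells were 1.07% in library 1 (0.817 to 1.37), 0.101% in library 2, 0.607% in library 4 (0.452 to 0.797), 0.228% in library 5 and 0.183% in library 6. Library 3 held 0 of 10124, which allows a share of up to 0.0296% by a floor of 3 counts and 0.0364% by the exact interval, and its 4 members were 3 Cspg4-only cells and 1 double-positive cell without a lineage factor. Libraries 1 and 4 thus stood above the other 4, with intervals that do not overlap theirs. Total depth ran from 46853113 to 62094407 UMIs per library.

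The order changed with the reference class. Per 100 mature oligodendrocytes of the same library (Mag, Mog, Ermn, Cldn11 and Mal at 2 or more per 1000), the lineage cells numbered 91.0, 5.73, 0, 58.0, 5.79 and 38.5 in libraries 1 to 6. Library 6, with 26 mature oligodendrocytes, then stood between libraries 1 and 4 on one side and libraries 2, 3 and 5, which held 157, 202 and 328, on the other. Pdgfra-only cells made up 57.8% of the members of library 1, 33.9% of library 4, 36.4% of library 5, 40.0% of library 6 and 10.5% of library 2, whose members were 8 of 19 Gpr17/Bmp4-only. Because 410 barcode sequences occurred in 2 or more libraries, members were checked: 5 carried a sequence found in another library, and 0 sequences were shared by members of different libraries.

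**Figure D2:**
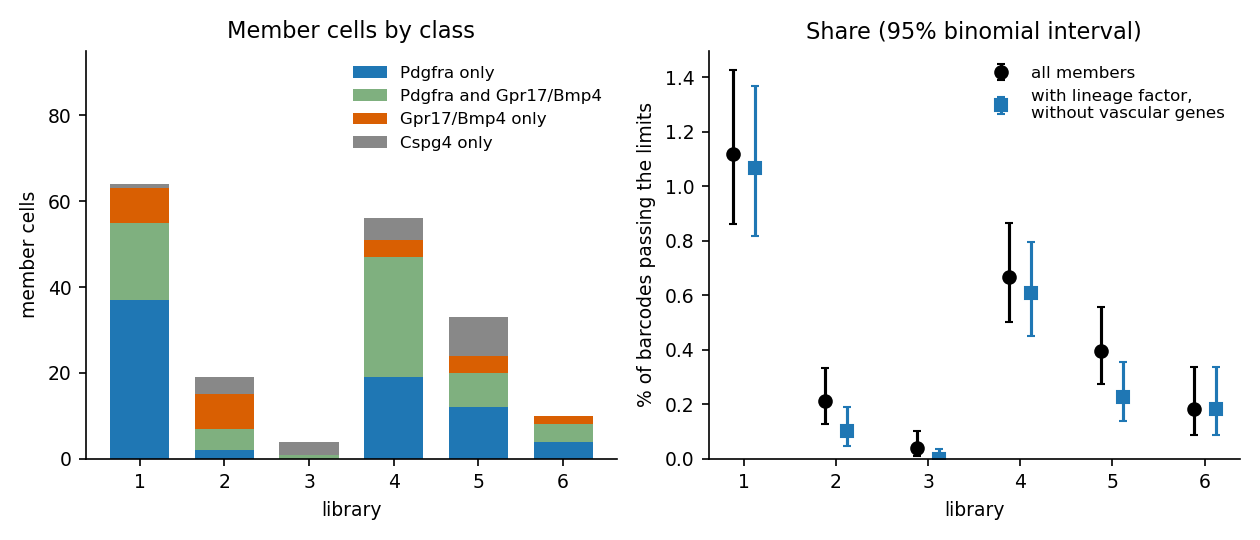
Left, member cells (y axis) in each of the 6 libraries (x axis), stacked by class. Right, members (circles) and lineage cells (squares) as a percentage of passing barcodes in each library, with exact binomial 95% intervals. Libraries 1 and 4 hold 64 and 56 of the 186 members, and library 3 holds 0 lineage cells.

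Pdgfra-positive lineage cells expressed the genes known from precursors. Summed over the 73 Pdgfra-only cells, Olig1 and Olig2 stood at 2333 and 943 CPM and Sox10 at 447 CPM. The lineage cells were chosen to hold at least 1 UMI of these factors, so these levels are a description only. The matrix genes Vcan (versican) and Tnr (tenascin-R) stood at 1664 and 601 CPM, and C1ql1, a secreted synaptic organiser, at 943 CPM. Receptor and channel genes were present as well, with Gria2, a subunit of AMPA glutamate receptors, at 1604 CPM, the auxiliary subunit Cacng4 at 509 CPM and the endothelin receptor Ednrb at 377 CPM. Their 28 measured myelin genes summed to 1827 CPM, against 1897 CPM in microglia and macrophages and 1180 CPM in astrocytes.

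The double-positive cells resembled the Pdgfra-only cells in these genes. Of 4523 genes compared (at least 30 UMIs over both classes), 42 were at least 2-fold higher (0.929%) and 31 at least 2-fold lower (0.685%) than in Pdgfra-only lineage cells. Ratios carry 10 CPM added to both sides. Precursor genes outside the rule had 0 of 27 past 2-fold in either direction, with a median log2 ratio of -0.09 beside 0.02 over all genes. Committed genes had 2 of 18 higher, Plxnb3, a semaphorin receptor, at 127 against 53 CPM and Sirt2 at 304 against 138 CPM. Cnp, an early enzyme of myelin, stood at 970 against 588 CPM. By the rule, before the cells with vascular genes were set aside, 117 of 4842 genes were higher (2.42%) and 46 lower (0.95%), and 5 of 6 fibroblast markers compared were among the higher ones.

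The border between these 2 classes rested on few counts. Of 57 double-positive lineage cells, 36 had exactly 1 Gpr17 UMI, 21 had 2 or more and 3 had 5 or more. Thinned to 1000 UMIs per cell in a single random draw, Gpr17 remained in 33.3% of the 57 and in 30% of the 20 Gpr17/Bmp4-only lineage cells. It remained in 0.1% of microglia. Unthinned, the shares were 100%, 100% and 0.1%. A separate draw over members by the rule gave the opposite order, with 25% of 64 double-positive and 34.6% of 26 Gpr17/Bmp4-only cells. The thinned shares therefore do not order the classes. Summed over cells, Gpr17 had 101 of 298977 UMIs in the 57 cells and 115 of 177385 in the 20. Taking the larger of the Pdgfra and Gpr17+Bmp4 counts as the class moved Pdgfra-type cells from 39.8% to 67.2% of the members.

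Gpr17/Bmp4-only cells differed from Pdgfra-only cells across the lineage programme. By the rule, 483 of 4126 genes were at least 2-fold higher in them (11.7%) and 543 at least 2-fold lower (13.2%). In lineage cells, 425 of 3622 were higher (11.7%) and 556 lower (15.4%), with a median log2 ratio of 0.05 over all genes. Leaving out library 1 brought the lower genes by the rule from 543 to 300, and leaving out libraries 1 and 4 together brought the higher genes to 255 and the lower genes to 122. With fewer cells, fewer genes reach 30 UMIs, and the numbers compared in these runs were not recorded. The falls therefore cannot be read as a smaller difference. Each class was summed over the pooled matrix as 1 sample, so these counts carry no test.

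Genes of committed and newly formed oligodendrocytes were mostly higher. Of 20 compared in lineage cells, 14 were at least 2-fold higher and 1 lower, with a median log2 ratio of 2.27 (by the rule, 15 and 2 of 22, median 1.96). Bcas1, which marks newly forming oligodendrocytes, stood at 3783 CPM against 802 CPM. Fyn, a kinase of process outgrowth, stood at 2542 against 274 CPM, and Sirt2, a deacetylase of oligodendrocytes, at 3614 against 138 CPM. Tcf7l2, a transcription factor of differentiation, stood at 688 against 113 CPM. Enpp6, a choline phosphodiesterase of newly formed oligodendrocytes, had 59 UMIs against 1, or 333 CPM (253 to 429) against 3.14 CPM (0.0796 to 17.5). Samd4a was the gene of this list that was lower, at 23 against 82 CPM.

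Myelin genes were higher in part. Of 12 compared in lineage cells, 9 were higher and 0 lower, with a median log2 ratio of 2.19 (by the rule, 10 and 0 of 13, median 1.93). Cnp stood at 5683 against 588 CPM, Mbp (myelin basic protein) at 834 against 22 CPM, and Ugt8, an enzyme of galactolipid synthesis, at 755 against 138 CPM. Myrf, the transcription factor of myelin genes, stood at 248 against 28 CPM. Genes of later myelin were at 0 UMIs in the 20 cells, among them Mobp and Opalin. The oligodendrocyte limit of the rule removes cells rich in myelin RNA, so these levels hold for the cells under it.

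Precursor genes split. Of 27 compared in lineage cells, 15 were at least 2-fold lower and 2 higher, with a median log2 ratio of -1.84 (by the rule, 15 and 0 of 27, median -2.24). Rlbp1, a retinaldehyde-binding protein, had 1 UMI against 251, or 5.64 CPM (0.143 to 31.4) against 789 CPM (695 to 893). Epn2, an endocytic adaptor, stood at 107 against 770 CPM, and Olig1 at 620 against 2333 CPM. Under 2-fold apart were Olig2 at 947 against 943 CPM, Sox10 at 682 against 447 CPM, Sox6 at 372 against 346 CPM, Vcan at 1421 against 1664 CPM, Tnr at 1020 against 601 CPM and C1ql1 at 1122 against 943 CPM. Sema5a (321 against 120 CPM) and Opcml (479 against 189 CPM) were the 2 that were higher. By the rule neither of these passed 2-fold.

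**Figure D3:**
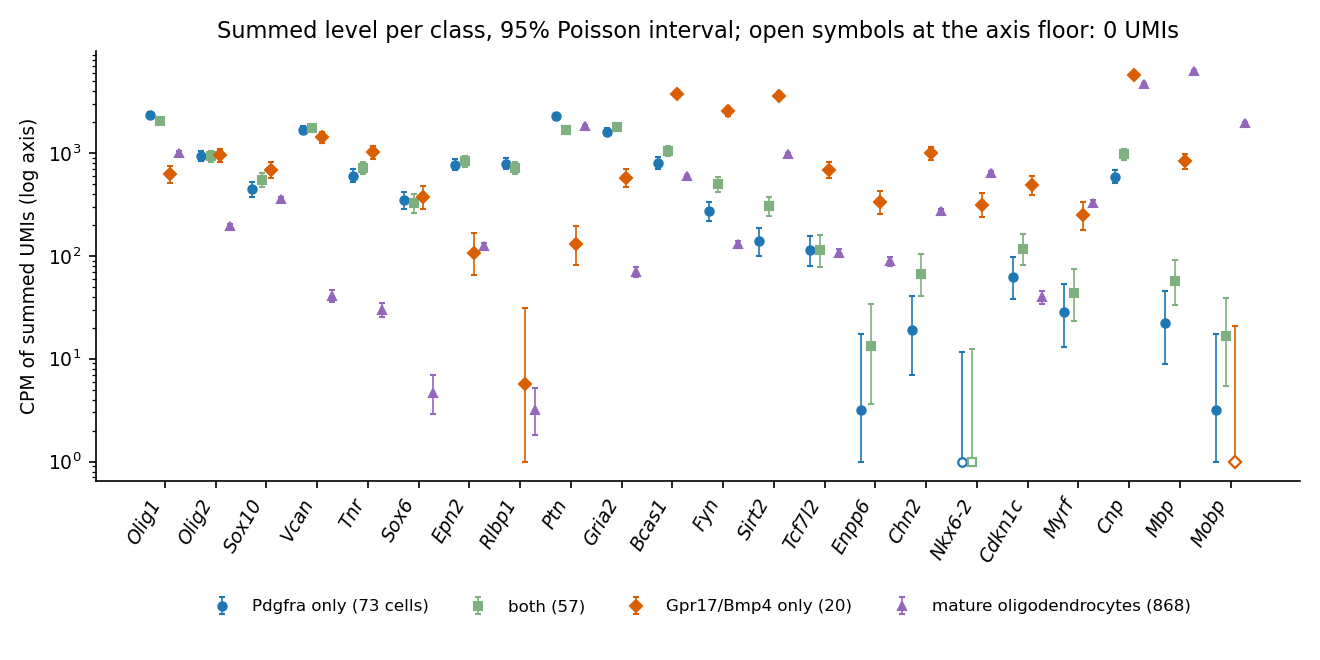
Summed level of named genes (x axis) in CPM (y axis, log scale) in Pdgfra-only, double-positive and Gpr17/Bmp4-only lineage cells and in mature oligodendrocytes, with Poisson 95% intervals; open symbols mark 0 UMIs and intervals are cut at 1 CPM. Double-positive cells lie beside Pdgfra-only cells, while Gpr17/Bmp4-only cells exceed both in genes from Bcas1 to Mbp and reach 0 for Mobp.

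Upstream sequence is shown for the list genes that lay far apart in either direction and had an entry in the RefSeq promoter table (GRCr8). Windows are the 250 bases before the gene start, written 5′ to 3′ along the gene, with each E-box (CANNTG, the letters read by Olig2 and related factors, the same on both strands) in capitals. Rlbp1 lies on the minus strand at chr1:142731622-142731871, and Enpp6 on the minus strand at chr16:52026729-52026978.
Rlbp1: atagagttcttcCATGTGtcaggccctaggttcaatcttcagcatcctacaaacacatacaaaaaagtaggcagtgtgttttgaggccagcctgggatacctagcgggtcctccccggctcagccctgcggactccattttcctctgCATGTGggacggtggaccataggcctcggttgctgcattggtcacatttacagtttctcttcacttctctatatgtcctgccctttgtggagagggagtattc
Enpp6: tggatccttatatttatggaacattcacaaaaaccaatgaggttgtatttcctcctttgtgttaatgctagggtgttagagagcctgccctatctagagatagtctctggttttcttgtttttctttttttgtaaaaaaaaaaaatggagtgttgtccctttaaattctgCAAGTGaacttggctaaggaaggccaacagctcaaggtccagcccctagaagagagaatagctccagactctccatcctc
The Rlbp1 window, of a gene higher in Pdgfra-only cells, holds 2 E-boxes. The Enpp6 window, of a gene higher in Gpr17/Bmp4-only cells, holds 1. An E-box was present in 65.5% of 33469 windows of this length, so its presence sets neither gene apart.

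Transcription factors of the lineage did not move as 1 group. Of 29 compared in lineage cells, 4 were higher and 9 lower in Gpr17/Bmp4-only cells, with a median log2 ratio of -0.03. Nkx6-2, a homeodomain factor of oligodendrocytes, had 56 UMIs against 0, which is at least 33.5-fold higher (floor of 3 counts over the class). Sox2 stood at 1359 against 500 CPM. The factor Etv1 had 3 UMIs, or 16.9 CPM (3.49 to 49.4), against 311 CPM, and its relatives Etv4 and Etv5, known as targets of growth factor signalling, had 2 and 1 UMIs against 30 each. Sox5 had 1 UMI against 35, and Zfp36l1, an RNA-binding protein, 3 against 95. Id2, an inhibitor of basic helix-loop-helix factors, stood at 68 against 182 CPM. Of the 9 lower factors, 2 were lower in each of the 5 libraries compared below. By the rule, 5 of 31 factors were higher and 8 lower, with a median of -0.33.

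Signalling genes of precursors were mostly lower. Of 14 growth factor and Notch genes compared in lineage cells, 10 were lower and 1 higher, with a median log2 ratio of -1.97 (by the rule, 9 and 2 of 15, median -1.10). Ptn, a secreted heparin-binding factor, stood at 130 against 2271 CPM, Lrp1, an endocytic receptor, at 242 against 940 CPM and Notch1 at 135 against 475 CPM. The neurotrophin receptor Ntrk2 stood at 130 against 563 CPM, and Ntrk3 had 0 UMIs against 34, at least 6.32-fold lower. Spry2, a feedback inhibitor of the ERK pathway, stood at 68 against 336 CPM, and Dusp6, another, had 3 UMIs against 51. Pdgfa, the ligand of Pdgfra, was the gene that was higher, at 265 against 82 CPM.

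Ion channels and receptors were lower as well. Of 12 compared, 10 were lower and 0 higher, with a median log2 ratio of -2.11 (by the rule, 11 and 0 of 12, median -2.34). The glutamate receptor genes Gria2 and Gria4 stood at 569 against 1604 and 68 against 296 CPM. Adora1, the A1 adenosine receptor, had 0 UMIs against 53, which is at least 9.86-fold lower. Kcna1, a potassium channel, stood at 417 against 283 CPM, under 2-fold apart. Of 16 synaptic and adhesion genes, 7 were lower and 2 higher, among them Cntn1, an adhesion protein, at 28 against 274 CPM. The 2 that were higher were Nfasc, an adhesion protein of the node of Ranvier and its flanks, at 660 against 104 CPM, and Tmem108 at 406 CPM against 0, at least 43.0-fold.

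Among matrix genes the difference lay in single members. Of 11 compared, 3 were lower and 1 higher, with a median log2 ratio of -0.23. Cspg5 (neuroglycan C) stood at 45 against 1035 CPM, while Bcan (brevican) stood at 992 against 664 CPM, under 2-fold apart. Outside the lists, the genes with the most extreme ratios downward were Col5a3, a collagen chain, with 1 UMI against 491, Olfm2 with 0 against 160 (at least 29.8-fold lower), Chl1, a cell adhesion protein, with 1 against 244, and Ccnd1, the cyclin of G1, with 4 against 520. Upward they included the tubulin gene Tubb4a with 432 UMIs against 41 and Rhbdl2 with 35 against 0 (at least 20.9-fold higher). By the rule, the 15 most extreme upward genes included the vascular Rgs5 and Itm2a, from cells that the choice of the lineage cells leaves out.

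**Figure D4:**
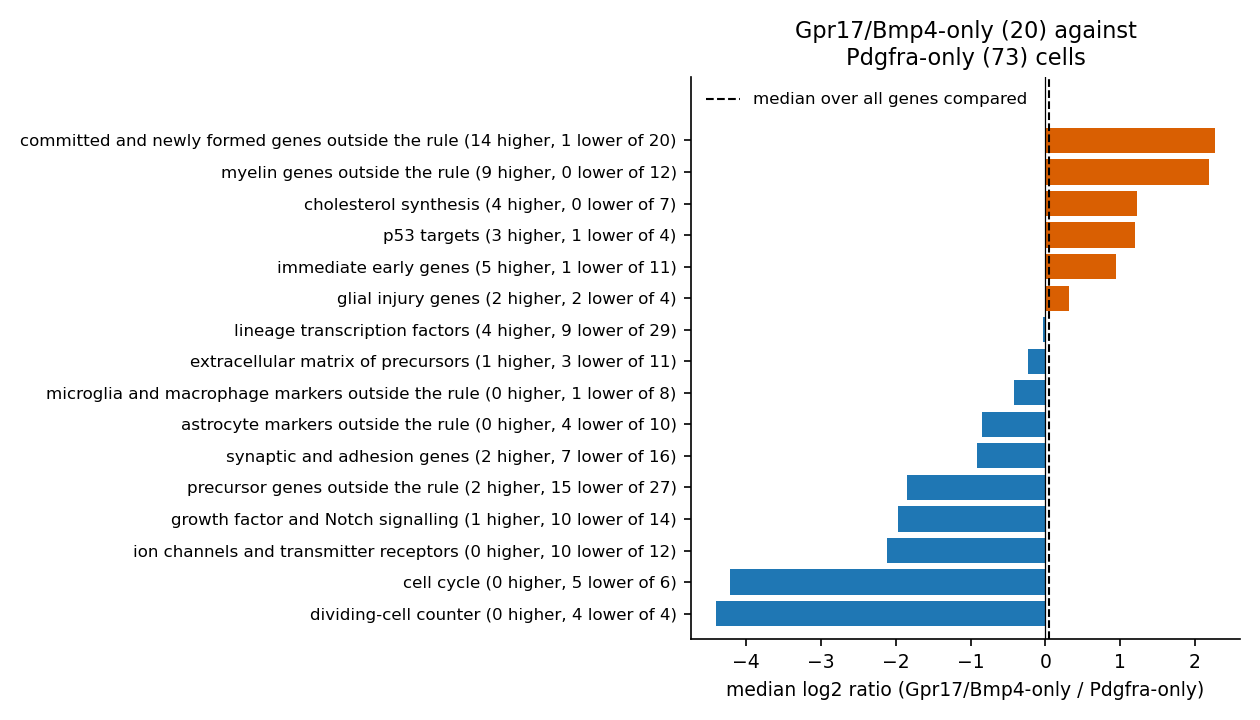
Median log2 ratio (x axis) of each gene list with at least 4 genes compared, Gpr17/Bmp4-only over Pdgfra-only lineage cells, with the counts of genes at least 2-fold higher or lower; the dashed line is the median over all genes, 0.05. Committed and myelin genes stand at 2.27 and 2.19, precursor genes at -1.84 and channels at -2.11.

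The difference was also read within libraries, a description added after the values were seen. No library held 10 cells of both classes, but 5 held some of both in the lineage cells. Over these 5 libraries, 515 of 3622 genes (14.2%) were higher in the Gpr17/Bmp4-only cells of every library and 354 (9.77%) lower. Among the 425 genes higher by 2-fold over the pooled matrix, 275 were higher in every library, and among the 556 lower by 2-fold, 236 were lower in every library. Of the 14 committed genes past 2-fold, 12 were higher in all 5 libraries, as were 6 of the 9 myelin genes. Of the 15 precursor genes lower by 2-fold, 11 were lower in all 5, as were 8 of the 10 channel genes and 5 of the 10 growth factor and Notch genes. For 235 genes (6.49%) the lowest library of Gpr17/Bmp4-only cells lay above the highest of Pdgfra-only cells, and for 189 (5.22%) the reverse held. The first set held 10 of the 14 committed genes and the second 9 of the 15 precursor genes. Among all genes past 2-fold, the first set held 179 of 425 higher ones and the second 165 of 556 lower ones.

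Values per library rest on few cells and carry no interval. Libraries 1, 2, 4, 5 and 6 held 37, 2, 19, 11 and 4 Pdgfra-only lineage cells. They held 6, 5, 4, 3 and 2 Gpr17/Bmp4-only lineage cells. Cnp stood at 616, 1315, 463, 606 and 686 CPM in the Pdgfra-only cells of libraries 1, 2, 4, 5 and 6, and at 5276, 5088, 6199, 6049 and 6470 CPM in their Gpr17/Bmp4-only cells. Bcas1 stood at 604, 1644, 1012, 1213 and 490 CPM, and at 4998, 3143, 3899, 3025 and 2717 CPM. Neither gene overlapped between the classes. Olig1 stood at 2184, 1479, 2411, 2599 and 2990 CPM in Pdgfra-only cells and at 774, 299, 1050, 287 and 518 CPM in Gpr17/Bmp4-only cells. Epn2 stood at 775, 986, 732, 866 and 686 CPM, and at 79, 75, 150, 127 and 129 CPM. Both were lower in each library without overlap, while Vcan, at 905.7 to 1875 CPM in Gpr17/Bmp4-only and 1128 to 2794 CPM in Pdgfra-only cells, overlapped. Tcf7l2 was higher in 4 of the 5 libraries and stood at 65 against 147 CPM in library 6, which held 2 Gpr17/Bmp4-only cells.

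**Figure D5:**
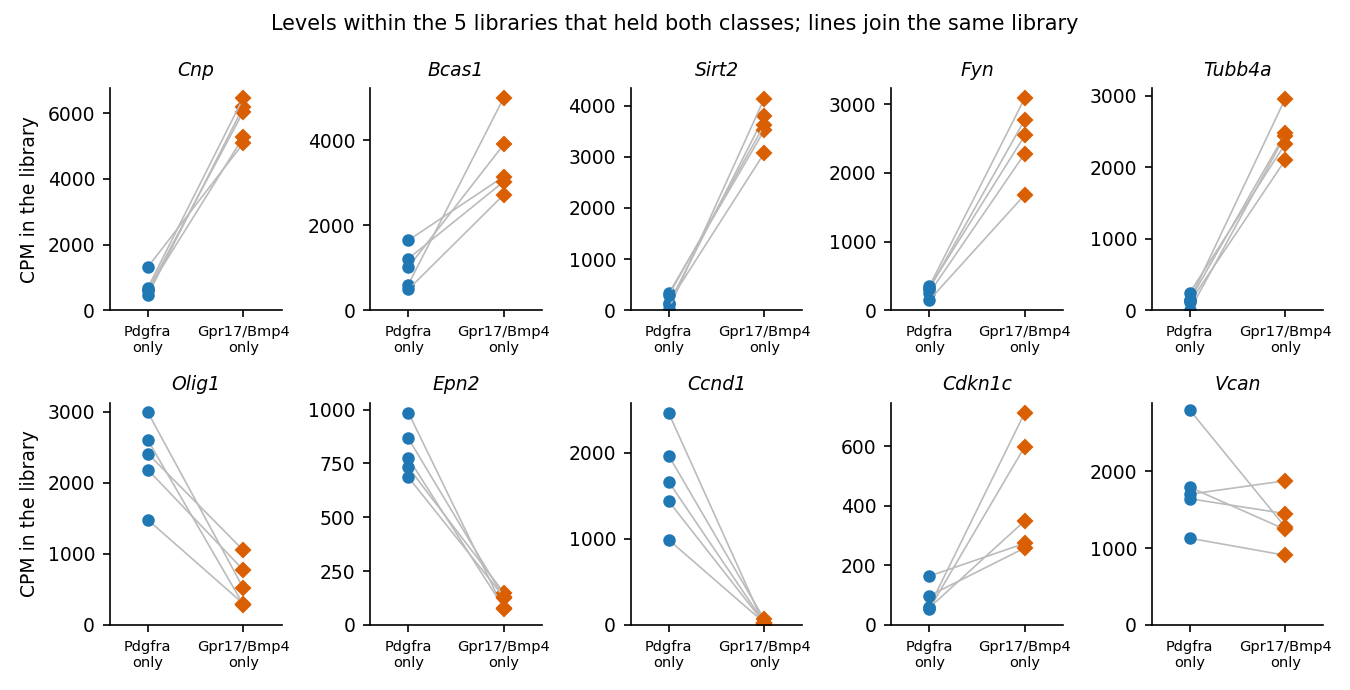
Level of 10 genes (y axis, CPM over the library's cells of that class) in Pdgfra-only and Gpr17/Bmp4-only lineage cells of the 5 libraries that held both; lines join the same library. Cnp runs from 463 to 1315 against 5088 to 6470, and Vcan overlaps.

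Dividing members were found in 2 libraries. At least 5 UMIs over 13 measured genes of dividing cells were present in 10 of 186 members (5.38%, 2.61 to 9.66), 5 of them Pdgfra-only and 5 double-positive. All 10 were lineage cells, 3 among the 55 Pdgfra-positive cells of library 1 and 7 among the 47 of library 4. Libraries 2, 5 and 6 had 0 among 4, 16 and 8 such cells; the 0 of 16 allows a share of up to 18.8% by the floor of 3 counts and 20.6% by the exact interval. Without library 4 the share of members fell to 2.31%. The 20 Gpr17/Bmp4-only lineage cells had 0, which allows up to 15% by that floor and 16.8% by the exact interval. In comparison, 31 of 132 neuroblasts (23.5%) and 0.115% of mature oligodendrocytes (1 cell) passed the same count.

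The 10 dividing cells were set beside the 120 other Pdgfra-positive lineage cells. The cell cycle genes chose the 10 cells and are given as a description. Both sets were also chosen to hold Pdgfra and at least 1 UMI of Olig1, Olig2 or Sox10. The levels of Pdgfra and Olig2 are therefore a description too. Mki67, the antigen Ki-67, and Top2a, a topoisomerase of dividing cells, stood at 1753 and 1468 CPM in the 10 cells, with 2 and 0 UMIs in the 120 other Pdgfra-positive lineage cells. Pdgfra stood at 1658 CPM (1377 to 1980) against 1982 CPM in the others, and Olig2 at 938 against 935 CPM. Ccnd1 stood at 2161 CPM (1838 to 2524) against 1215 CPM (1124 to 1311). Cnp stood at 476 against 813 CPM. Their median depth was 7158.5 UMIs against 4547. In Gpr17/Bmp4-only lineage cells Mki67 and Top2a had 0 UMIs, against 64 each in Pdgfra-only lineage cells, of which 5 were dividing. No fold is given, because such UMIs lie in few cells. The dividing share of up to 16.8% that the 20 Gpr17/Bmp4-only cells allow includes the 6.85% of Pdgfra-only lineage cells. None of the 5 cell cycle genes lower by 2-fold was lower in every library, and the Pdgfra-positive cells of libraries 2, 5 and 6 held 0 dividing cells. Cdkn1c, the cell cycle inhibitor p57, stood at 485 against 63 CPM. Cdkn1c was higher in all 5 libraries, at 259 to 714 against 54 to 164 CPM.

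Genes of damage and stress were also read, since p53 is known to be activated by radiation. Of 26 p53 targets measured, 4 had enough UMIs to compare, and 3 were higher and 1 lower in Gpr17/Bmp4-only lineage cells (by the rule, 2 and 0 of 4). Of these 3, 2 were higher in all 5 libraries. Bax, a pro-apoptotic protein, stood at 350 against 135 CPM, Btg2, an antiproliferative protein that is also an immediate early gene, at 366 against 88 CPM and Ei24 at 118 against 50 CPM, while Sesn1 stood at 28 against 101 CPM. Cdkn1a, the inhibitor p21, had 7 UMIs in the 150 lineage cells, or 8.81 CPM (3.54 to 18.2), in 4.00% of them. It stood at 92.3 CPM in mature oligodendrocytes, 88.6 CPM in microglia and macrophages, 32.0 CPM in astrocytes and 109 CPM in the Cspg4-only members. No group of rats can be attached to these levels.

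Immediate early genes, which cells switch on within minutes of a stimulus or of dissociation, gave no common order of the classes over libraries. Their summed level in Pdgfra-positive lineage cells was 2090, 14157, 2006, 4450 and 5574 CPM in libraries 1, 2, 4, 5 and 6, the highest from 4 cells. In Gpr17/Bmp4-only cells it was 8231, 2444, 4199, 2866 and 7763 CPM. Of 5 such genes at least 2-fold higher in the latter over the pooled matrix, 1 was higher in all 5 libraries. Interferon and MHC class I genes gave another count without the cells that held vascular genes: by the rule, 5 of 6 compared were higher in Gpr17/Bmp4-only cells, and in lineage cells 0 of 2 were higher and 1 lower. The summed level of this list in Gpr17/Bmp4-only lineage cells was 357, 723, 475, 350 and 906 CPM in libraries 1, 2, 4, 5 and 6. In Pdgfra-positive lineage cells it was 1023, 789, 1114, 1167 and 2185 CPM. It was thus lower in the former in each of the 5 libraries, with overlapping Poisson intervals in library 2. The sums in Gpr17/Bmp4-only cells rest on 11 to 29 UMIs per library. The integrated stress response list had 0 of 3 past 2-fold. Genes of cholesterol synthesis, a demand of myelin growth, had 4 of 7 higher and 0 lower (by the rule, 3 of 7 and 0), and 2 of the 4 were higher in all 5 libraries. Idi1, an isomerase of the pathway, stood at 214 against 41 CPM. Their summed level was higher in Gpr17/Bmp4-only than in Pdgfra-positive lineage cells in each of the 5 libraries, at 1230 to 1950 against 737 to 947 CPM.

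Against the mature oligodendrocytes, the lineage cells had 1867 of 10052 genes at least 2-fold higher (18.6%) and 639 lower (6.36%), with a median log2 ratio of 0.37 over all genes. By the rule, 2027 of 10605 were higher (19.1%) and 613 lower (5.78%). Both sides were chosen by oligodendrocyte genes, so a part of the myelin difference follows from the rule. The precursor list includes Olig1, Olig2 and Sox10, by which the lineage cells were chosen. Precursor genes had 23 of 28 higher and 0 lower, with a median of 3.90, and myelin genes outside the rule had 27 of 28 lower, with a median of -3.81. Vcan stood at 1644 against 41 CPM and Pcdh15, a protocadherin, at 453 against 1.20 CPM. Ptgds, a prostaglandin D synthase, stood at 34 against 9251 CPM, and Car2, carbonic anhydrase 2, at 34 against 3817 CPM.

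Most genes of commitment compared were also higher in the Gpr17/Bmp4-only lineage cells than in mature oligodendrocytes. Against mature oligodendrocytes, 1375 of 9250 genes were higher (14.9%) and 970 lower (10.5%). Committed and newly formed genes had 20 of 37 higher and 3 lower, with a median log2 ratio of 1.09 beside 0.19 over all genes. Fyn stood at 2542 against 130 CPM, Bcas1 at 3783 against 593 CPM, Mycl, a MYC family factor, at 598 against 15 CPM and Cd9, a tetraspanin, at 8451 against 1515 CPM. Cnp was near its mature level, at 5683 against 4742 CPM, while Mbp stood at 834 against 6303 CPM. Of 28 myelin genes outside the rule, 19 were lower and 0 higher.

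Pdgfra-only lineage cells were also set beside astrocytes and neuroblasts, the other cells of the neural line. Against 10208 astrocytes, 1975 of 14151 genes were higher (14%) and 1050 lower (7.42%), and 24 of 27 precursor genes were higher with 0 lower. All 14 astrocyte markers outside the rule were lower, and both sets had been chosen by astrocyte genes. Against 132 neuroblasts, 1038 of 7646 genes were higher (13.6%) and 946 lower (12.4%). Precursor genes had 24 of 27 higher and 2 lower. Lower were 16 of 35 cell cycle genes and 14 of 15 neuroblast and neuron markers, with 0 higher in either list. The neuroblasts were chosen by at least 5 UMIs over Dcx, Stmn2, Tubb3, Elavl3, Elavl4 and Igfbpl1, genes of the last list. The lower neuroblast markers therefore follow in part from that choice. In both comparisons the precursor list includes Olig1, Olig2 and Sox10, by which the lineage cells were chosen.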

How the data were processed

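Single-cell suspensions of rat hippocampus, depleted of dead cells with microbeads, were run with the Chromium 3′ v3 kit, per the labels' protocols. The deposited file holds UMI counts, made by the authors with Cell Ranger 7.0.0 per the file headers and the submitters' processing notes. Those notes name mm10, a mouse build, while the gene identifiers are of the rat; the annotation and the treatment of intronic reads are not stated there. The matrix held 30452 genes, 7092 of them under an identifier only, and 58078 barcodes with suffixes 1 to 6. For each class the UMIs of all its cells were added up and scaled to CPM, with exact Poisson intervals; shares have exact binomial (Clopper-Pearson) intervals at 95%. Genes with at least 30 UMIs over both classes were compared by the log2 ratio with 10 CPM added, and 2-fold was the limit. Named were genes of the rule, of 27 lists, and the 15 with the largest ratio each way found in at least 10% of cells of the higher class. Members and lists were chosen with earlier results of these data known. The comparison was tested on simulated data. RNA of other cells in droplets was not removed. Doublets were kept. Barcodes were scored with Scrublet (scanpy 1.11.5), and those with the highest scores in each library were marked. The share marked was set in advance from the number of barcodes in the library, so it is not a detected doublet rate. Of the 4598 barcodes marked (7.94%), 10 were members, and leaving the marked barcodes out was an alternative. The other alternatives changed the limits, the count minimum, the added CPM, the class definition, the weight of cells and the libraries. Python 3.11.15, NumPy 2.4.6, SciPy 1.17.1 and pandas 2.3.3 were used. The planned comparison of irradiated with control rats was not run.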

Additional observations from a re-analysis of the deposited data

How the results depend on the processing

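The share of members among passing barcodes (0.396%) was 0.292% with at most 10% mitochondrial UMIs, 0.466% with no such limit, 0.332% with at least 5 marker UMIs, 0.183% with astrocyte and C1q genes at most 1 per 1000, 0.328% for members with a lineage factor and 0.319% for the lineage cells. Pdgfra-only cells (39.8% of members) were 23.7% with at most 10% mitochondrial UMIs, 31.4% with astrocyte and C1q genes at most 1 per 1000, 48.1% with a lineage factor, 48.7% in the lineage cells and 67.2% when the larger count set the class; Gpr17/Bmp4-only cells (13.98%) were 23.3% under the stricter astrocyte and C1q limits and 19.9% by the larger count. Genes at least 2-fold higher in Gpr17/Bmp4-only cells (483) numbered 301 with at most 10% mitochondrial UMIs, 301 with 50 CPM added, 860 with at least 10 UMIs per gene and 180 with at least 100. Genes at least 2-fold lower (543) numbered 216, 317, 1307 and 119 under the same settings, and 242 with the stricter astrocyte and C1q limits. Leaving out 1 library at a time gave member shares of 0.296% (without library 1) to 0.494% (without library 3; 0.337% without library 4), Pdgfra-only shares of 30.3% (without library 1) to 43.1%, Gpr17/Bmp4-only shares of 10.8% to 16.9%, dividing shares of 2.31% (without library 4) to 6.54%, 383 to 493 higher genes and 300 (without library 1) to 543 lower genes. Without libraries 1 and 4 together, a setting chosen after seeing the data like that of the lineage cells, these were 0.201%, 27.3%, 21.2%, 0%, 255 and 122. The medians of the precursor, committed and myelin lists kept their direction in every alternative run, including each library left out. Of 713 values of 30 single genes, 607 stayed near the main value, 106 moved and 1 fell under 2-fold. The cause of these shifts was not tested. The numbers of genes compared in the alternative runs were not recorded, so their counts of genes past 2-fold carry no share. No paired analysis was possible because no library could be tied to a labelled sample. With 20 Gpr17/Bmp4-only lineage cells, genes under about 30 UMIs could not be compared.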
